A study of Rattus norvegicus with 2 samples.

Results

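The aldo-keto reductases described here are 9 genes, Akr1d1, Akr1b1, Akr1b8, Akr1b10, Akr1c14, Akr1e2, Akr1a1, Akr7a2 and Akr7a3, among 27235 genes with a name on a rat expression microarray. They were picked by gene name, with earlier results of these data known, and Akr1d1 was picked because its ratio was high. Every non-control probe carrying one of these names was used, which gave 14 probes and 32 spots. IEC6 cells are a line of normal rat small-intestinal epithelium that grows without transformation. One sample of cells grown on dishes received sodium trisulfide (Na2S3), an inorganic polysulfide, for 60 min, and the other received water for 60 min, both in medium with 0.1% serum after growth in 10% serum. The Na2S3 dose is 100 µM in that sample's treatment label and 100 mM in the treatment protocol, and which was applied cannot be settled from these sources. Each group had 1 array, so no test across arrays was possible, and every ratio below is the Na2S3 array over the water array with no replicate check.

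Aldo-keto reductases are soluble enzymes that use NADPH or NADH to reduce carbonyl groups on sugars, lipid aldehydes, steroids and xenobiotics. In the gut epithelium they are known for handling dietary and lipid-derived aldehydes, and in liver Akr1d1 supplies the step that gives bile acids their bent ring shape. Several family members are known targets of NRF2, the transcription factor that answers electrophilic and oxidative stress.

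The results turn on a pair of 60-base probes, so their sequences are shown first. The Akr1d1 probe is the only one of 3 Akr1d1 probes with a signal above background, and the Akr1b8 probe is the one with the larger ratio of the Akr1b8 pair. Both are given 5′ to 3′ as the array files hold them, in lower case because no part of either is singled out.
Akr1d1, rn4 chr4:65001378-65001437, + strand, listed from base 915 of its transcript: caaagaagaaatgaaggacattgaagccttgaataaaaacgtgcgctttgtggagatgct
Akr1b8, rn4 chr4:61724364-61725032, + strand, listed from base 837 of its transcript: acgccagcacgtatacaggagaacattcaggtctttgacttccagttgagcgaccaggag
The Akr1b8 probe covers 669 genomic bases and thus lies across an intron, while the Akr1d1 probe covers 60 bases of genome without a gap. No other probe name on the array carried either sequence. Exon and UTR annotation of rn4 was not used here.

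A probe counted as measured when it was well above background on both arrays, which held for 9 of the 14 probes and 7 of the 9 genes. A gene's value was its brightest measured probe, with each array scaled to its 75th percentile of signal. Of the 7 measured genes, 1 was at least 2-fold higher with Na2S3 (Akr1d1), beside 0.942% of the 13062 genes measured on both arrays, and 0 were at least 2-fold lower, beside 0.62%. The median log2 ratio of the 7 genes was -0.08, against -0.04 for all measured genes, which had an SD of 0.34. Apart from Akr1d1, the measured members ranged from -0.22 to 0.30 on the log2 scale. Akr1b10 and Akr7a3 were above background on neither array. In whole cultures of this kind, fewer cells expressing a gene and less RNA per cell cannot be told apart.

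**Figure D1:**
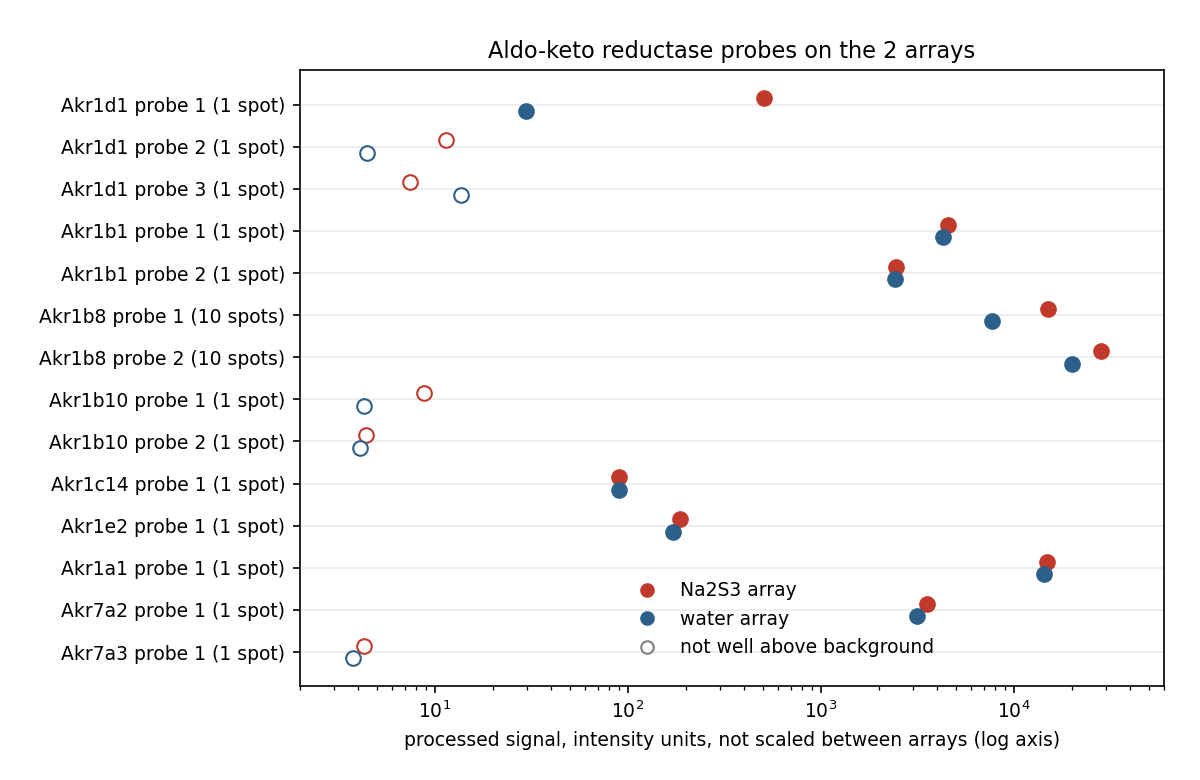
Processed signal of each of the 14 aldo-keto reductase probes on the Na2S3 array (red) and the water array (blue), in intensity units on a log axis, before scaling between arrays. Filled points were well above background and open points were not; the first Akr1d1 probe, at 507 against 29.8, and the Akr1b8 probes lie apart between the arrays.

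The 75th percentiles were 478 intensity units with Na2S3 and 413 with water, a log2 shift of 0.21 that scaling removed and that is as large as several member ratios. Before scaling, Akr1b1, Akr1a1, Akr1e2 and Akr7a2 had folds from 1.01 to 1.13, and after it their log2 ratios were below 0, though that of Akr7a2 reached 0.02 under the alternatives. Of 45598 probes, 49.0% were above background on the Na2S3 array and 49.5% on the water array, with 0 saturated spots on either. The epithelial label was set against marker lists. Of 14 intestinal epithelial markers with a probe, 5 were measured (Krt8, Krt18, Krt19, Cdh1 and Cdx1), and Epcam, Vil1, Cdx2, Lgr5 and Krt20 were among the 9 at background on both arrays. Of 10 fibroblast markers, 7 were measured (Vim, Col1a1, Col1a2, Col3a1, Thy1, Dcn and S100a4), and Pdgfra, Pdgfrb and Lum were at background on both arrays. The measured ones ran from 117 (Thy1) to 108685 (Col3a1) intensity units with Na2S3, and from 128 to 91981 with water. The summed scaled signal of all 10 was 739 on the Na2S3 array and 812 on the water array. The summed scaled signal of the epithelial list was 77.6 on the Na2S3 array and 80.0 on the water array. Different probes bind differently, so the sums of the lists are not set against each other.

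Akr1d1 encodes the steroid 5β-reductase, which reduces the ring double bond of bile acid precursors and of steroid hormones. Its probe listed from base 915 had a processed signal of 507 on the Na2S3 array, against 29.8 on the water array. Scaled to the 75th percentile, these were 1.06 with Na2S3 and 0.0721 with water, a 14.7-fold difference or a log2 ratio of 3.88. Only 3 of the 13062 measured genes had a higher ratio. The probe was printed once, so each array's value is 1 spot. On the Na2S3 array that spot had a mean pixel intensity of 592 over 45 pixels (pixel SD 141) with a local background of 64. On the water array the mean was 114 over 42 pixels (pixel SD 25.2) with a local background of 69. Neither spot carried an outlier flag, and the water spot stood close to its background while the Na2S3 spot did not.

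The other Akr1d1 probes did not show this difference. The probe listed from base 1675, at chr4:65004347-65004406, had 11.4 intensity units with Na2S3 and 4.44 with water. The probe listed from base 2930, at chr4:65005616-65005677, had 7.47 with Na2S3 and 13.6 with water. Both were below the lowest signal called well above background, 20.5 on the Na2S3 array and 18.3 on the water array, and they leaned in opposite directions, so no fold is given for either. All 3 probes are listed on the same transcript and strand. From base 915 to base 1675 the genome runs 2969 bases for 760 bases of transcript, so 2209 genomic bases between the probe with signal and the next are not in the transcript, whereas the downstream pair is 1269 genomic bases apart for 1255 of transcript. Why 1 of 3 probes read a signal was not tested.

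**Figure D2:**
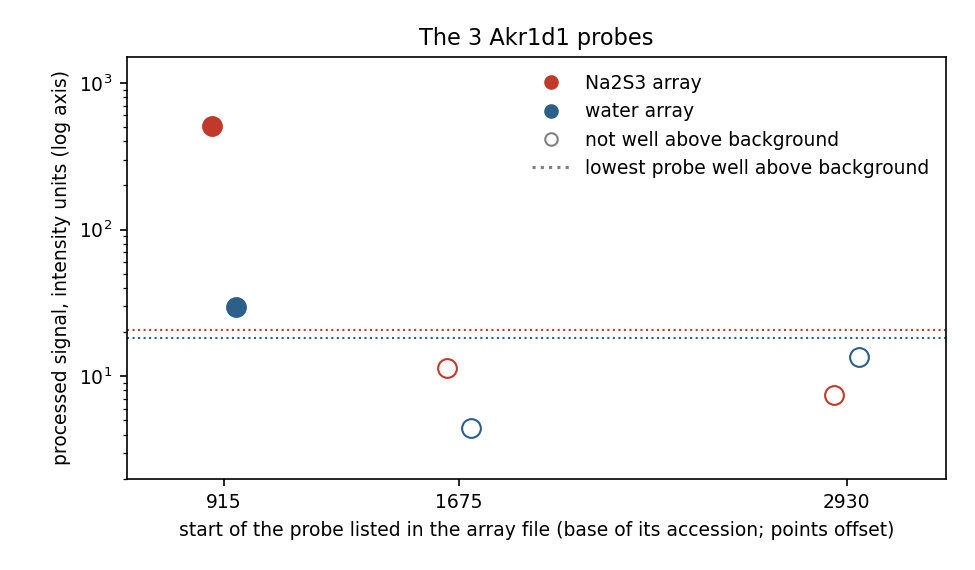
Processed signal of the 3 Akr1d1 probes in intensity units (log axis) against the base of the transcript from which each is listed, for the Na2S3 array (red) and the water array (blue). Dotted lines mark each array's lowest probe well above background; only the probe from base 915 lies above them, at 507 with Na2S3 and 29.8 with water.

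Repeat spots on the same arrays show how far single spots strayed in windows of signal. Among 40 probes printed 10 times whose water signal was within 2-fold of 29.8, 354 spot pairs departed from their own probe's mean log2 ratio with an SD of 0.45 and by at most 2.08. Of these pairs, 13 departed by more than 2-fold. That window was set by the water signal alone and does not describe the brighter Na2S3 spot of Akr1d1. Probes within 2-fold of the geometric mean signal of the Akr1d1 probe over both arrays (123 intensity units) were tighter. They had an SD of 0.17 and a largest departure of 0.69 over 449 pairs. This window does not describe the dim water spot. By repeat probes of like signal, the Akr1d1 spot SD was 0.35 on the water array and 0.09 on the Na2S3 array. The spread of repeat spots gives the Akr1d1 log2 ratio a spot error of 0.36. This error covers differences between spots of 1 array and not those between cultures.

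Genes read through a lone probe were counted in the same way. For 158 genes with at least 3 probes, 1 probe was measured and the rest were at background on both arrays, as for Akr1d1. Of these, 4 (2.53%) were at least 2-fold higher with Na2S3, Akr1d1 among them, and 4 (2.53%) at least 2-fold lower. In the 582 genes with at least 3 probes, all measured, the counts were 2 (0.344%) higher and 2 (0.344%) lower. Akr1d1 had the largest ratio of the 8 lone-probe genes past 2-fold, but it was picked for a high ratio, so this place is no support. The others were LOC102553109 (1.48), LOC102554662 (1.29), Inhba (1.07), Bcl11a (-1.05), Nlrp3 (-1.25), LOC102550290 (-1.26) and Fyb1 (-2.07), as log2 ratios.

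The 3 genes on each side of Akr1d1 in ratio were chosen by rank alone among genes without a provisional name (LOC, RGD or MGC with a number). Above it were Atf3, a stress-induced transcription factor, at a log2 ratio of 4.75, Trib3, a pseudokinase of the integrated stress response, at 4.54, and Fosl1, an AP-1 subunit, at 4.41. Below it were Sesn2, a sestrin, at 3.21, Nr4a1, an orphan nuclear receptor, at 3.18, and Vegfa, the angiogenic growth factor, at 3.15. Of these 6 genes, 5 had 1 probe each on the array. Vegfa had 3 probes, of which 2 were measured and gave 2.74 and 3.15. Nr4a1, whose water signal of 24.9 was as dim as that of Akr1d1, was read by 10 spots of its probe.

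The size of the Akr1d1 ratio moved with 1 alternative. Normexp started from the mean pixel intensity instead of the processed signal, subtracted the local background and modelled what background remained. With it and an added offset of 50 intensity units, the Akr1d1 log2 ratio was 2.37 and its rank 9. The starting signal, the model and the offset changed together, and their parts were not tested. The other 8 alternatives gave 3.88 to 3.94, and no alternative moved it under 2-fold.

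**Figure D3:**
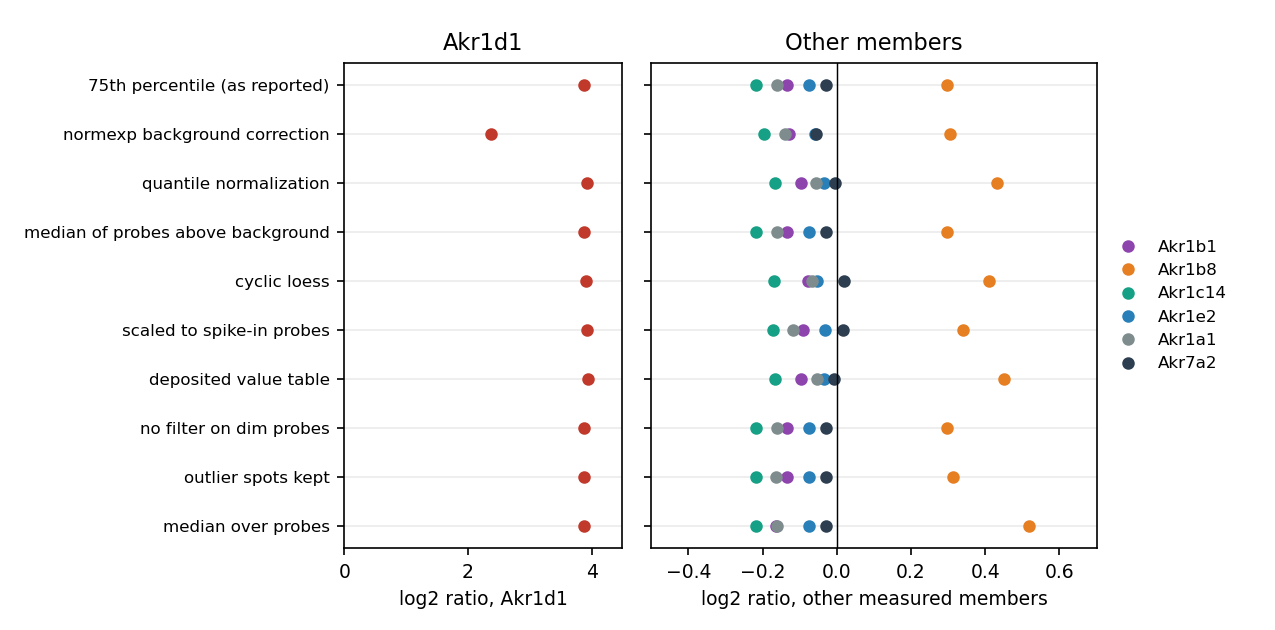
Log2 ratio (Na2S3 over water) of the 7 measured members under the reported processing and 9 alternatives, 1 row each, with Akr1d1 on its own axis at left. Akr1d1 moved to 2.37 under normexp background correction with an offset of 50, Akr1b8 ranged from 0.30 to 0.52, and Akr7a2 crossed 0.

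Akr1b8 belongs to the aldose reductase subfamily and is known, chiefly from mouse, as a growth factor-induced reductase of lipid aldehydes. It was the only other measured member with a positive ratio, and it was read by 20 spots. The probe listed from base 837 had a lowest, median and highest spot of 14444, 14862 and 15692 intensity units on the Na2S3 array, against 7155, 7684 and 8332 on the water array. The spots did not overlap, also after scaling, at 30.2 to 32.9 with Na2S3 and 17.3 to 20.2 with water. How many other probes printed 10 times had spots that did not overlap was not counted, so this only describes the probe. The scaled difference was 1.67-fold, a log2 ratio of 0.74 with a spot error of 0.03. Paired by position, all 10 spot pairs were positive, from 0.69 to 0.82.

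The second Akr1b8 probe lies downstream at chr4:61727072-61727131 and is listed from base 2928 of another transcript record. One of its Na2S3 spots was an outlier and was left out. The remaining 9 had a lowest, median and highest signal of 25806, 28008 and 33376 intensity units on the Na2S3 array, against 18616, 19875 and 22211 over 10 spots on the water array. After scaling, the Na2S3 spots (54.0 to 69.9) still lay above the water spots (45.0 to 53.7), by a narrow margin. Here too, the share of other probes with such a separation was not counted. Its log2 ratio was 0.30, or 1.23-fold, with a spot error of 0.04, and all 9 spot pairs were positive, from 0.16 to 0.52. As the brighter probe it gives the gene's value, and 9.91% of measured genes had a higher one.

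The Akr1b8 probes agreed in direction and differed in size, by 0.45 ± 0.05 on the log2 scale (spot error). Among 2528 genes with exactly 2 measured probes, the median gap was 0.15, and 12.9% had a gap as large as that of Akr1b8. Of the 1164 measured probes printed 10 times, 16 (1.37%) had a log2 ratio at least as high as the base 837 probe, and 36 (3.09%) at least as high as the base 2928 probe. Repeat spots share 1 labelled RNA, so these figures say nothing of the spread between cultures. Under the alternatives the base 837 probe gave 0.74 to 0.84 and the base 2928 probe 0.30 to 0.45.

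**Figure D4:**
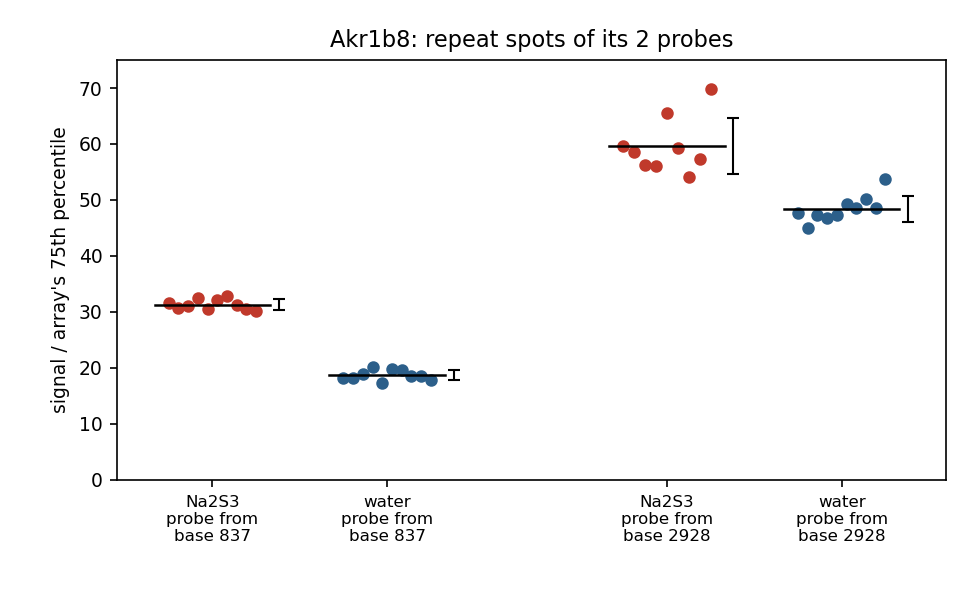
Signal of each repeat spot of the Akr1b8 probes, divided by its array's 75th percentile (no unit), on the Na2S3 array (red) and the water array (blue). Points are spots, horizontal lines their means and bars the SD over spots; Na2S3 spots lie above water spots for both probes, with the wider gap at the probe from base 837.

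Akr1b1, aldose reductase, converts glucose to sorbitol and reduces lipid aldehydes. Its probe listed from base 443 (chr4:61652419-61652766, - strand) had 4544 intensity units with Na2S3 and 4320 with water, a log2 ratio of -0.14 with a spot error of 0.15. The probe from base 755 (chr4:61650888-61651458, - strand) had 2440 with Na2S3 and 2416 with water, a log2 ratio of -0.19 with a spot error of 0.13. Thus the aldose reductase gene and Akr1b8, on the same chromosome, had ratios on opposite sides of 0, and those of Akr1b1 were within 2 spot errors of it. The array also carries a probe for a pseudogene, Akr1b1-ps1 on chromosome 6, which reads part of the same sequence and had 70.8 intensity units with Na2S3 and 61.0 with water (log2 ratio 0.01). The probes are printed to show the overlap, with bases that are the same in both in capitals.
Akr1b1, base 443: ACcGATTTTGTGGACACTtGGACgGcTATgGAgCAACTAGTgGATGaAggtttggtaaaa
Akr1b1-ps1, rn4 chr6:46331763-46331822, + strand: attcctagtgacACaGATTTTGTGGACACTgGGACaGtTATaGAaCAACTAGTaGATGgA
Of 48 aligned bases, 40 (83.3%) were the same, with a longest shared run of 15, so RNA of either gene could in part bind the probe of the other. How much it did was not tested.

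Akr1b10, the third gene of this subfamily, whose human counterpart reduces retinal and lipid aldehydes, was at background. Its 2 probe names hold the same sequence (chr4:61771202-61771261, + strand). Their spots had 8.81 and 4.41 intensity units with Na2S3, against 4.30 and 4.07 with water.

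A further steroid reductase and a sugar reductase of the group, Akr1c14 and Akr1e2, were measured on both arrays at similar signals. Akr1c14, the rat 3α-hydroxysteroid dehydrogenase, had 89.5 intensity units with Na2S3 and 90.0 with water (chr17:77317088-77317147, - strand), a log2 ratio of -0.22 with a spot error of 0.22. Akr1e2, which reduces 1,5-anhydrofructose, had 187 with Na2S3 and 170 with water (chr17:77025079-77025138, + strand), a log2 ratio of -0.08 with a spot error of 0.17. Neither differed between the arrays by more than its spot error.

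The general aldehyde reductases that were measured lay close between the arrays. Akr1a1, which reduces glucuronate and many aldehydes, had 14851 intensity units with Na2S3 and 14393 with water (chr5:136923270-136923329, - strand), a log2 ratio of -0.16 with a spot error of 0.11. Akr7a2, the succinic semialdehyde reductase, had 3551 with Na2S3 and 3134 with water (chr5:158104829-158105391, + strand), a log2 ratio of -0.03 with a spot error of 0.16. Its sign was not fixed, since the alternatives gave -0.06 to 0.02. Akr7a3, the rat aflatoxin aldehyde reductase known as an inducible detoxification gene, had 4.28 with Na2S3 and 3.75 with water (chr5:158147285-158147343, + strand), at background on both arrays.

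**Figure D5:**
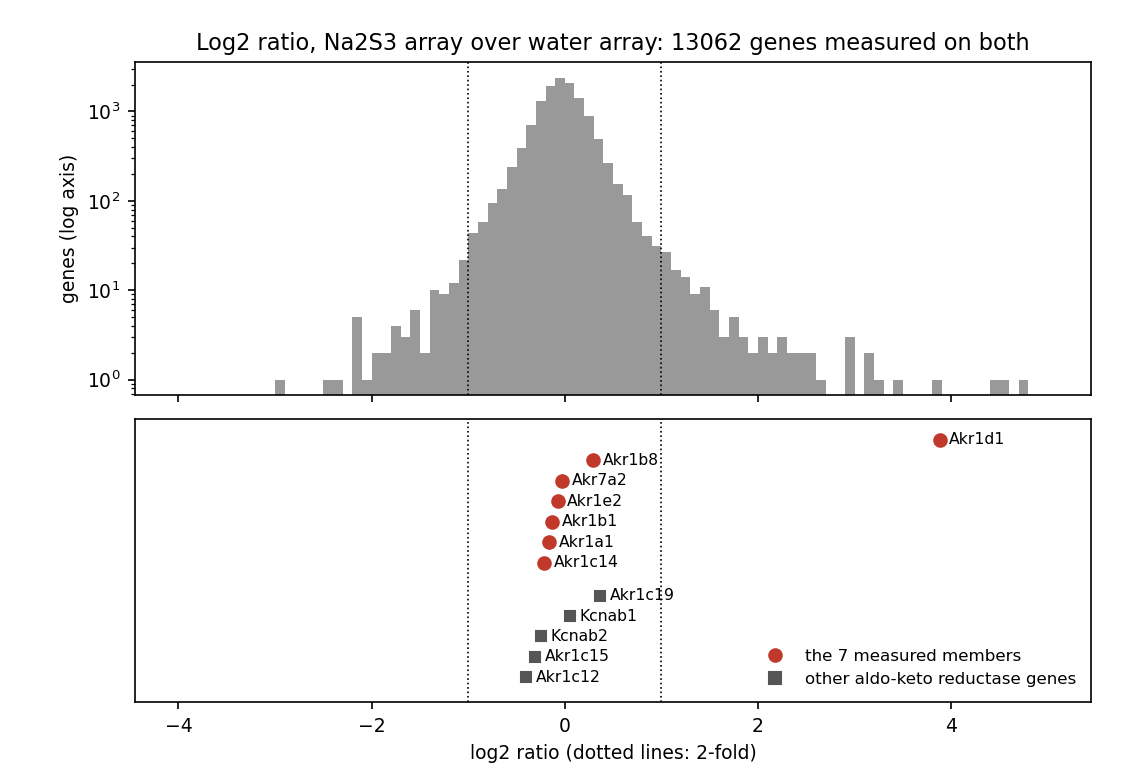
Top, the log2 ratios (Na2S3 over water) of all 13062 genes measured on both arrays, with the number of genes on a log axis; bottom, the 7 measured members (circles) and 5 other measured family genes (squares) on the same ratio axis. Dotted lines mark 2-fold; Akr1d1 at 3.88 lies beyond them and the other family genes lie between them.

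The rest of the family was listed from the gene table. Of 18 further aldo-keto reductase gene names, 12 had a probe and 5 were measured, with a median log2 ratio of -0.24. Of these, 0 were 2-fold different, while 0.942% of all measured genes were higher and 0.62% lower by that rule. Akr1c15, which the array file names Akr1cl, had 10970 intensity units with Na2S3 and 11769 with water, and its log2 ratio was -0.31 with a spot error of 0.12. Akr1cl is also among the 18 names and was counted there as without a probe, so the 18 are not all distinct genes. Akr1c19 had 75.6 with Na2S3 and 50.8 with water, at 0.37 with a spot error of 0.28. Akr1c12, which the array file names Akr1c13, had 30.5 with Na2S3 and 34.8 with water, at -0.40 with a spot error of 0.45. Kcnab2, a potassium channel β subunit of the same fold, had 134 with Na2S3 and 137 with water over repeat spots, at -0.24 with a spot error of 0.05. Members of the Akr1c cluster are close copies, so their probes may share RNA. Akr1c3 was above background with Na2S3 only, at 21.2 intensity units with Na2S3 and 10.6 with water, too close to the lowest signal called above background (18.3 on the water array) for a fold. Akr1b7, Akr1c1, Akr1c2 and Akr1c13 were among the 6 at background on both arrays.

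Genes that work beside Akr1d1 in bile acid and steroid ring metabolism stayed mostly near 0 or at background. Of 32 such genes, 18 were measured, with 1 higher and 0 lower by 2-fold or more, and with a median log2 ratio of -0.05. Of all 13062 measured genes, 0.942% were higher and 0.62% lower by the same rule. Cyp39a1, an oxysterol hydroxylase, was the 1 higher, with 344 intensity units with Na2S3 and 145 with water, a log2 ratio of 1.03 with a spot error of 0.16. It was read by 1 measured probe of 2, and with normexp it was 0.73, under 2-fold. Srd5a2, a 5α-reductase acting on the same steroid ring bond, had 34.7 with Na2S3 and 57.1 with water, at -0.93 with a spot error of 0.36. Its other measured probe gave -0.23, and with normexp the gene stood at -0.49. Its signals were near the lowest called above background, 20.5 with Na2S3 and 18.3 with water. Nr1h3, an oxysterol-sensing nuclear receptor, was at 0.51 with a spot error of 0.48, and Hsd17b1, which makes estradiol, at 0.30. The enzymes that open and complete bile acid synthesis in liver, Cyp7a1, Cyp8b1, Cyp27a1, Slc27a5 and Baat, were at background on both arrays. Of 12 hepatocyte markers, 11 were at background on both arrays, Alb, Apoa1 and Ttr included. The remaining marker, Tf, had 402 with Na2S3 and 379 with water.

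Other enzymes of carbonyl and aldehyde metabolism were counted too. Of 44 listed genes, 35 were measured, with 0 higher and 1 lower by 2-fold or more, beside 0.942% and 0.62% of all measured genes. The list had a median log2 ratio of -0.14 and a range of -1.01 to 0.68. Positive ratios were found in 8 of the 35, beside 43.4% of all measured genes, whose median was -0.04. The list's median lay between -0.14 and -0.04 under the alternatives, but the median of all measured genes moved too. With cyclic loess, which gave the list -0.04, all measured genes had a median of 0.01. Dhrs4, a peroxisomal carbonyl reductase, was the 1 lower, with 496 intensity units with Na2S3 and 863 with water. Its probes gave -1.01 and -0.91, and with normexp the gene stood at -0.87. Aldh1a7, an aldehyde dehydrogenase, had 44.3 with Na2S3 and 23.9 with water, at 0.68 with a spot error of 0.48. Dhrs3, a retinal reductase, was at -0.44, and Aldh18a1, which makes proline precursors, at 0.31. Adh4 had 11.8 with Na2S3, not well above background, and 134 with water, at least 7.56-fold lower with Na2S3 against the lowest signal called above background. It was named after its values were seen.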

How the data were processed

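Per the labels' protocols, Cy3-labelled cRNA was made from total RNA of 1 sample in each group and put on 1-colour Agilent arrays. The deposited scanner files hold linear intensity values, background-subtracted and detrended within each array by Feature Extraction, which is version 10.7.1.1 per the file headers and 9.5.1.1 per the submitters' processing notes. The array files give coordinates on rn4. The authors' value table, used as an alternative, is also in linear intensity, with a median of 19.3 on both arrays and no stated normalization.

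Outlier spots were left out (390 with Na2S3, 448 with water). The log2 processed signal was averaged over a probe's spots, and the log2 of each array's 75th percentile was subtracted, which removed a shift of 0.21. A probe was well above background when more than 50% of its spots were flagged so. Names came from RefSeq (GRCr8) through accessions for 21109 probes, 14743 kept the file's name and 9746 without a name were left out. Spot errors come from the 50 repeat-spot probes nearest in signal. Scripts used Python 3.11.15, numpy 2.4.6, pandas 2.3.3, R 4.3.3 and limma 3.58.1 (normexp with offset 50, quantile, cyclic loess), and were tested on simulated data.

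With 1 array per group no p-value is given, and precision is limited by the number of arrays. Genes counted as higher had a log2 ratio of at least 1, and as lower of at most -1. Members and lists were chosen with earlier results of these data known. The text names all members, the 3 genes on each side of Akr1d1 in ratio (provisional names passed over), and up to 4 genes per list by size of ratio.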

Additional observations from a re-analysis of the deposited data

How the results depend on the processing

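Alternatives were normexp background correction, quantile, cyclic loess and spike-in scaling, scaling to the median of probes above background, the deposited table, no filter on dim probes, outlier spots kept, and the median over a gene's probes. Of 207 values recomputed (23 results under 9 alternatives), 189 stayed within a set limit and 18 moved further. The limit was the spot error for a gene, 0.16 for a median of genes and a separate limit for counts. Of the gene ratios past 2-fold, 0 changed sign, while that of Akr7a2 did, reaching 0.02. The Akr1d1 log2 ratio was 2.37 under normexp with an offset of 50, and 1 member was at least 2-fold higher and 0 lower under every alternative. Akr1b8 moved to 0.41 with loess, 0.43 with quantile, 0.45 with the deposited table and 0.52 with the median over probes. Dhrs4 stood under 2-fold with loess, spike-in scaling, normexp and the median over probes. Without the filter, 1062 genes were higher and 1545 lower, so higher genes made up 40.7% of calls, against 60.3% with the filter, and Akr1d1 ranked 37. Normexp gave 61 higher and 31 lower genes. Quantile scaling gave 141 and 67. Cyclic loess moved the median of all genes furthest of these alternatives, by 0.05. The cause was not tested. The water spot of Akr1d1, at 29.8 intensity units, lay near that array's lowest signal called above background (18.3). No paired analysis was possible because each group had 1 array and the labels carry no replicate numbers.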
